A study of Mus musculus with 6 samples.

Results

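The cytosolic ribosomal protein genes encode the proteins of the cytoplasmic ribosome. They were taken by gene symbol, as symbols of the form Rps or Rpl followed by a number and at most a short suffix, with Rpsa, Rplp0, Rplp1, Rplp2, Rps27l and Fau added and pseudogenes left out. Of 24110 genes, 85 had such a symbol. Rpl10l and Rpl26 were listed at 0 in all 6 libraries and were left out, which gave 83 genes, 34 of the small (40S) and 49 of the large (60S) subunit. The libraries came from mouse hematopoietic stem cells, which maintain all blood lineages and live in the bone marrow, sorted as cells without lineage markers that carry Sca-1 and CD150 and lack CD48. Both groups were C57BL/6 mice with floxed Prmt5 alleles. The alleles were intact in the Prmt5 fl/fl group and deleted in the Prmt5 KO group, 7 days after induction. The sources used here do not give the agent of induction, the Cre driver or the age of the animals. Each group held 3 libraries, each from the pooled bone marrow of 2 mice, and the genotypes were matched by litter and sex. The PRMT5 enzyme places symmetric methyl marks on arginines, among them arginines of the splicing machinery, and the study's title concerns splicing in these cells. Only totals per gene were used, so splicing was not analysed here.

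Each ribosome carries 1 copy of nearly every ribosomal protein, and the mRNAs of the family are among the most abundant of a cell. Most of these mRNAs begin with a C followed by a run of pyrimidines, the 5′ terminal oligopyrimidine (TOP) motif, through which mTOR signaling and the protein LARP1 control their translation. Hematopoietic stem cells are known for a low rate of protein synthesis, and loss of 1 allele of several of these genes causes Diamond-Blackfan anemia, a failure of red cell production. When ribosome assembly is disturbed, RPL5 and RPL11, which together with 5S rRNA form the 5S ribonucleoprotein particle, can bind MDM2 and stabilize p53.

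The starts of several of these genes are shown because the family is translated and studied as a set through them. Whether the starts bear on the results below was not tested. The windows are RefSeq promoter sequences of GRCm38.p6, 20 bases before and 10 bases from the annotated start, 5′ to 3′ on the gene's strand. Capitals mark an unbroken run of pyrimidines that opens with C at the start and holds at least 4 more. The genes Rps6, Rpl35, Rpl38, Rpl15, Rplp2 and Rps27 open with such a tract.
Rps6 (chr4:86857358-86857387, minus strand): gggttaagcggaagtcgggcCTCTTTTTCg
Rpl35 (chr2:39005122-39005151, minus strand): gaagtcggccccgccctttcCTCTTTCTCT
Rpl38 (chr11:114668560-114668589, plus strand): ccggaagcggaagcctcgttCTTTCCCCgt
Rpl15 (chr14:18270977-18271006, minus strand): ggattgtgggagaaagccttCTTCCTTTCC
Rplp2 (chr7:141447631-141447660, plus strand): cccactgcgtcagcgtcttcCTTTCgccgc
Rps27 (chr3:90213639-90213668, minus strand): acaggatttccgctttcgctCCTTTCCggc
The annotated starts of Rps27l, Rplp0, Rpl22l1 and Rpl41 do not open with C and 4 pyrimidines, and their windows therefore hold no capitals.
Rps27l (chr9:66946066-66946095, plus strand): cctctccactcctccccgccgcctctatcc
Rplp0 (chr5:115559447-115559476, plus strand): acgtcgtcttcgggtttcgaggaccgcctg
Rpl22l1 (chr3:28805488-28805517, plus strand): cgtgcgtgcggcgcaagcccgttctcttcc
Rpl41 (chr10:128549159-128549188, minus strand): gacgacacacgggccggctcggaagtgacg

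RefSeq windows of 250 bases before to 50 bases after the start were matched to 62 of the 83 genes, with 74 windows in all. A start of C and 4 pyrimidines stood in 14 of the 74 windows (18.9%), against 2.51% of the 32851 windows of all genes. A run of at least 8 pyrimidines within 20 bases of the start stood in 32 (43.2%), against 16.0% of all windows. The word CCGGAAG, part of the binding motif of ETS-family factors, was on either strand of 26 windows (35.1%, against 8.86%). AAGATGGC, the core of the YY1 motif, was on either strand of 9 (12.2%, against 2.75%). CACGTG, the E-box that MYC binds, was in 8 (10.8%, against 7.15%). TATAAA within the 50 bases before the start was in 1 window (1.35%, against 2.63%), that of Rpl22l1. A match describes the letters of the window and not a bound factor, and a shift of the annotated start by a base changes the first count.

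The libraries held 37834096 to 44704636 reads in genes, and all values are scaled to a common total of 44704636 ("scaled counts"). The targeted gene Prmt5 was at 6010 to 6076 scaled counts in the fl/fl libraries and at 897 to 1056 in the KO libraries (log2 fold -2.60; limma, adjusted p = 6.18e-04). Genes of the sorting gate were present in all libraries, and Cd48, which the gate selects against, was at 446 to 757. A pair of libraries stood apart. In fl/fl replicate 3 long transcripts were low: the median gene over 4000 bases was 0.60 lower on the log2 scale than the mean of fl/fl replicates 1 and 2, while genes over 500 and up to 1000 bases outside the family were 0.50 higher. In KO replicate 3 the granulocyte gene S100a8 was at 153117 scaled counts, against 2096 to 31873 in the other libraries, and S100a9, Lyz2 and Itgam were also highest there. Other granulocyte and monocyte markers were not. Mpo, Elane, Ctsg and Csf1r were highest in fl/fl replicate 1, and Prtn3 was highest in fl/fl replicate 3. Mpo was at 53564 in fl/fl replicate 1 and at 15944 in KO replicate 3. The summed level of 9 granulocyte and monocyte markers ranged from 56168 to 200409 in fl/fl and from 63845 to 554793 in KO. The summed level of platelet markers was 73212 to 86729 in fl/fl and 31548 to 60640 in KO, of red cell markers 3199 to 7695 and 2108 to 2509, of B cell markers 1806 to 2863 and 1572 to 1828, and of T and NK cell markers 4674 to 7321 and 4118 to 5261. The T and NK cell sum was mostly Nkg7 (3944 to 7020), and the B cell sum was mostly Cd79b (1543 to 2846). The T cell gene Cd3e was at 153.6 in KO replicate 3, against 0 to 14.2 in the other libraries. Cd3d, Cd3g, Cd8a and Klrb1c were also highest in KO replicate 3. Nkg7 was highest in fl/fl replicate 3 and Cd4 in fl/fl replicate 2. The globin genes Hba-a1, Hba-a2, Hbb-bs and Hbb-bt were at 0. The part of these libraries and markers in the results below was not tested beyond the values given. In these bulk samples a change in the kinds of cells and a change in RNA per cell cannot be told apart.

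No ribosomal protein gene passed the test between genotypes. Of 82 tested genes, 0 were higher and 0 lower in Prmt5 KO at an adjusted p below 0.05 (limma, Benjamini-Hochberg over 14113 genes), where 0.276% of all genes were higher and 0.453% lower. At an unadjusted p below 0.05, limma had 2 higher, Rps27l and Rps27, and 0 lower, against 4.58% and 13.6% of all genes. EdgeR on the recovered reads called 0 of them (0.425% of all genes in either direction). DESeq2 called the same 2, both higher, where it called 2.64% of all genes higher. The fold of 79 genes lay within 0.3 of 0 on the log2 scale, with 48 above 0 and 34 below, and the median was 0.021, against -0.048 over all genes tested. The median stayed above 0 under 4 other scalings, at 0.020 to 0.11. With libraries scaled to the family's own median it was -0.031, with 36 folds above 0. That scaling places the family's median near 0 in advance, so its sign there is no result about the family. Under the 4 scalings the number of genes with a fold above 0 ranged from 47 with quantile normalization to 72 with median-of-ratios size factors. Without fl/fl replicate 1, fl/fl replicate 2, KO replicate 1 or KO replicate 2 the median was below 0, at -0.056, -0.078, -0.064 and -0.0033. Rps27l and Rps27 were the 2 genes with 3 KO values above all 3 fl/fl values, and no gene had them all below. That is 2.44% of the tested members, against 28.2% of all genes with groups that did not overlap.

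The libraries of each genotype differed widely, and the genes of the family differed together. Relative to the mean of fl/fl replicates 1 and 2, the median ribosomal protein gene stood 0.020, -0.020 and 0.50 higher on the log2 scale in fl/fl replicates 1 to 3, and 0.36, 0.23 and -0.011 in KO replicates 1 to 3. The third fl/fl library was thus above KO replicates 1 and 2, and KO replicate 3 was level with fl/fl replicates 1 and 2. The median over all genes moved by no more than 0.097 in any library. For 65 of the 82 genes the highest value was in fl/fl replicate 3, and for 15 it was in KO replicate 1. The lowest value was in fl/fl replicate 2 for 43 genes and in KO replicate 3 for 33. The 76 mitochondrial ribosomal protein genes, which encode proteins of a separate ribosome, had medians of 0.43 in fl/fl replicate 3 and 0.26, 0.14 and 0.025 in KO replicates 1 to 3. Their order was the same for fl/fl replicate 3 and for KO replicates 1 and 2.

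**Figure D1:**
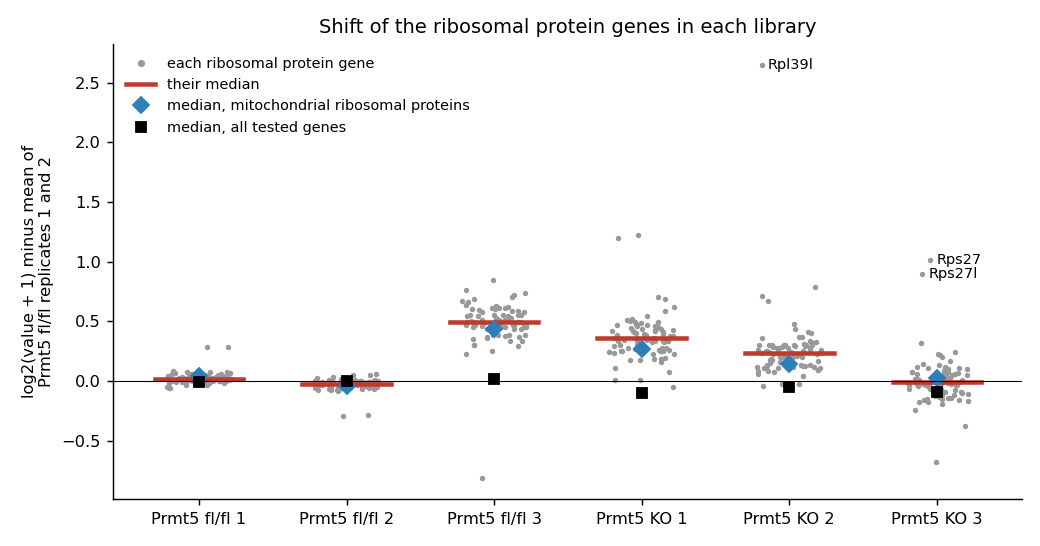
Each grey point is 1 of the 82 tested ribosomal protein genes, plotted as log2(value + 1) minus its mean in Prmt5 fl/fl replicates 1 and 2, for each of the 6 libraries on the horizontal axis. Red bars are the family's median, blue diamonds the median of 76 mitochondrial ribosomal protein genes and black squares the median of all tested genes. The family stands at 0.50 in fl/fl replicate 3 and at 0.36 and 0.23 in KO replicates 1 and 2, and near 0 in KO replicate 3.

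Gene length differed between the family and other genes, and libraries differed by length. The median deposited length was 717.5 bases for the tested ribosomal protein genes and 2808 for all tested genes, and 48 of the 82 were over 500 and up to 1000 bases long. Other genes of that length stood at 0.50 in fl/fl replicate 3, the same as the family. In KO replicates 1 and 2 these other genes stood at 0.097 and 0.0052, below the family's 0.36 and 0.23, and in KO replicate 3 they stood at -0.069. Other genes of up to 500 bases stood at 0.25 in fl/fl replicate 3 and at 0.29, 0.18 and 0.085 in KO replicates 1 to 3. The part of length in the shift of the family was not tested further.

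The family took 3.34%, 3.27% and 4.71% of all reads in genes in fl/fl replicates 1 to 3. In KO replicates 1 to 3 it took 4.11%, 3.78% and 3.22%. The groups overlapped, with means of 3.78% ± 0.809 and 3.70% ± 0.453 (SD, n = 3 each), and without fl/fl replicate 3 the fl/fl mean was 3.31%. The 40S genes held 1.39%, 1.36% and 1.97% of reads in fl/fl and 1.76%, 1.60% and 1.37% in KO. The 60S genes held 1.95%, 1.92% and 2.74% in fl/fl and 2.35%, 2.18% and 1.84% in KO.

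The balance of reads between the genes of the 2 subunits varied much less between libraries than the total did. Summed 40S reads divided by summed 60S reads gave 0.713, 0.709 and 0.720 in fl/fl replicates 1 to 3. The ratio was 0.751, 0.733 and 0.744 in KO replicates 1 to 3, so the lowest KO library lay above the highest fl/fl library. Groups also did not overlap for 28.2% of single genes. The fl/fl mean was 0.714 ± 0.0058 and the KO mean 0.743 ± 0.0090 (SD, n = 3 each), which differ by 0.0287 or 4.01%. The difference was 0.0244 to 0.0334 with any 1 library left out. Without Rps27 and Rps27l in the sum, a choice made after their values were seen, it was 0.0214. No test was applied to this sum over chosen genes. Abundant genes weigh most in it, and the median gene of each subunit did not show the shift in every same-numbered pair. The median log2 difference of KO minus fl/fl was 0.35 for 40S and 0.33 for 60S genes between the libraries numbered 1. It was 0.28 and 0.26 between those numbered 2. Between those numbered 3, where the ratio was also higher in KO, it was -0.53 and -0.49. The ratio does not depend on how libraries are scaled to each other, but the part of gene length and level in it was not tested.

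**Figure D2:**
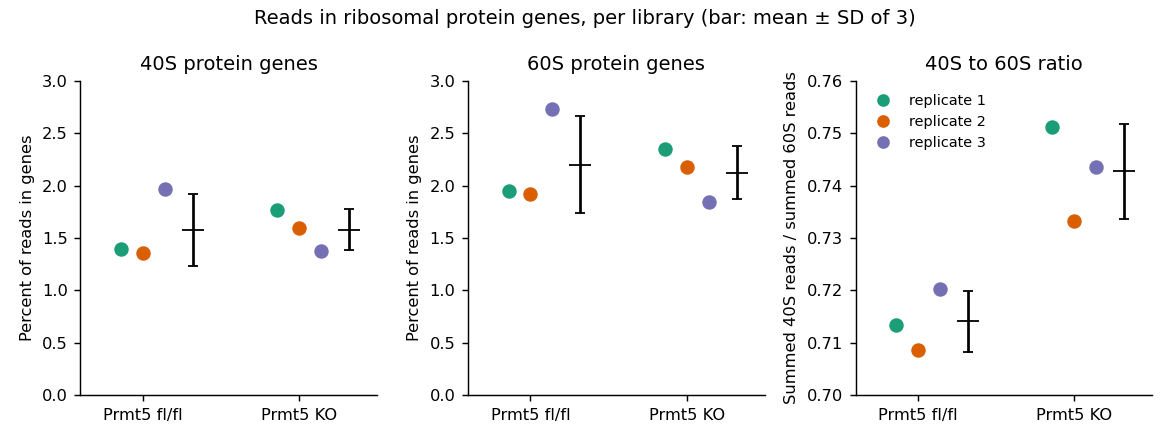
Points are single libraries, with Prmt5 fl/fl and Prmt5 KO on the horizontal axis, colors marking the replicate number and bars showing the mean ± SD of 3. The 40S and 60S shares, in percent of reads in genes on axes from 0, overlap between genotypes, while the ratio of 40S to 60S reads, on an axis from 0.70 to 0.76, is 0.709 to 0.720 in fl/fl and 0.733 to 0.751 in KO.

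The libraries carry title prefixes, each shared by 1 fl/fl and 1 KO library with the same replicate number. Within the pair numbered 1, 79 of 82 genes were higher in KO, where 39.5% of all genes were. The median difference was 0.33 on the log2 scale, and Rpl35a, Rpl7l1 and Rplp0 were lower. In the pair numbered 2 it was again 79 of 82 (43% of all genes), with a median of 0.27, and Rpl21, Rplp0 and Rps4l were lower. In the pair numbered 3 the direction was the opposite, with 79 of 82 genes lower and only Rpl39l, Rps27 and Rps27l higher (45.4% of all genes higher). The median there was -0.51. The directions held under 4 other scalings, with medians of 0.28 to 0.42 in the first pair, 0.22 to 0.33 in the second and -0.40 to -0.53 in the third. In all, 74 genes were higher in the first and second pairs and lower in the third. Rpl39l, Rps27 and Rps27l were higher in all 3 pairs (14% of all genes), and Rplp0 was lower in all 3 (28.1% of all genes). The differences of Rplp0 were -0.0086, -0.011 and -0.72, so the first and second were close to none. With median-of-ratios size factors all 82 genes, Rplp0 among them, were higher in KO in the first and second pairs. The third pair joins both libraries that stood apart.

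**Figure D3:**
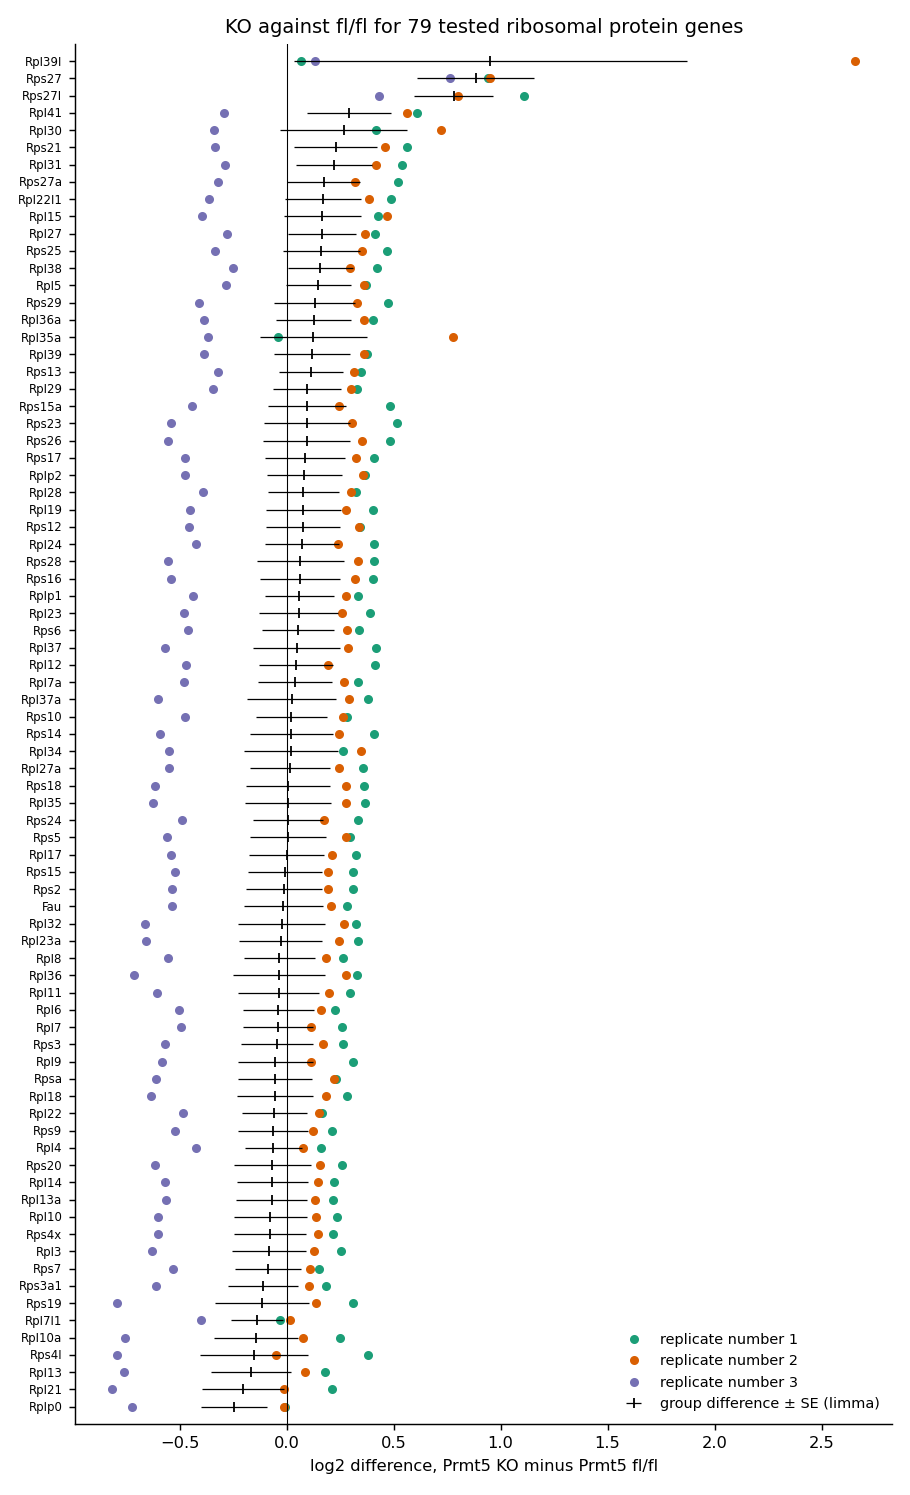
Each row is 1 of 79 of the 82 tested ribosomal protein genes, ordered by the group difference, and the horizontal axis is the log2 difference of Prmt5 KO minus Prmt5 fl/fl. Colored points are the differences within the 3 same-numbered pairs of libraries, and black marks are the group difference ± SE from limma. The points of pairs 1 and 2 lie right of 0 for nearly all of these genes and those of pair 3 lie left of 0 for nearly all, except Rpl39l, Rps27 and Rps27l.

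The number of genes past the limma threshold stayed at 0 without fl/fl replicate 1 or 2 or any 1 of the KO libraries, and changed with the third fl/fl library left out. In that fit 79 of 82 folds were above 0 with a median of 0.20, and limma called 1 gene, Rps27l (adjusted p = 0.032), where 0.851% of all genes were higher. With both libraries numbered 3 left out, a choice made after seeing the data, 80 folds were above 0 with a median of 0.31. Limma then called 11 genes higher and 0 lower, where 1.38% of all genes were higher and 2.44% lower. Among the 11 were Rps16, Rps21, Rps25, Rps26, Rps27l, Rpl15, Rpl22l1, Rpl31, Rpl41 and Rplp2. That fit rests on 2 libraries a group, and the direction of the family within the third pair is opposite to it.

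Rps27l encodes a paralog of the 40S protein Rps27 and is known as a transcriptional target of p53. The gene lies on chromosome 9 (66946086 to 66949516, plus strand, GRCm38/mm10, GENCODE M21), and no exon of another gene overlaps it. Of the 50-base words of its transcripts, 16.2% occur in 4 other annotated genes, all of them pseudogenes. It was at 8495, 7540 and 11072 scaled counts in the fl/fl libraries, in replicate order, and at 18334, 13121 and 14919 in the KO libraries. The KO values lay above every fl/fl value, although fl/fl replicate 3 was the highest of its group, as for most of the family. The means were 9036 ± 1827 and 15458 ± 2648 (SD, n = 3 each). The log2 fold was 0.78 (standard error 0.19), which did not pass the threshold over all genes (limma, adjusted p = 0.0984). The adjusted p was 0.109 with edgeR and 0.0038 with DESeq2. The differences in the pairs were 1.11, 0.80 and 0.43.

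Rps27 itself, also called metallopanstimulin, was far less abundant in the table. The gene lies on chromosome 3 (90212522 to 90213651, minus strand). It was at 153, 103 and 149 scaled counts in the fl/fl libraries and 294, 200 and 254 in the KO libraries, again with no overlap. The log2 fold was 0.88 (standard error 0.27; limma, adjusted p = 0.158; DESeq2, adjusted p = 0.0375), and the pairs gave 0.94, 0.95 and 0.76. Of the 50-base words of its transcripts, 46.2% occur in 9 other annotated genes, 8 of them pseudogenes, so its value can depend on the treatment of reads with several matches, which the sources used here do not give. No 50-base word is shared between Rps27 and Rps27l. Per kilobase of gene length, Rps27l stood at 6888%, 9072% and 9189% of Rps27 in the fl/fl libraries and at 7722%, 8132% and 7280% in the KO libraries, with overlapping ranges.

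**Figure D4:**
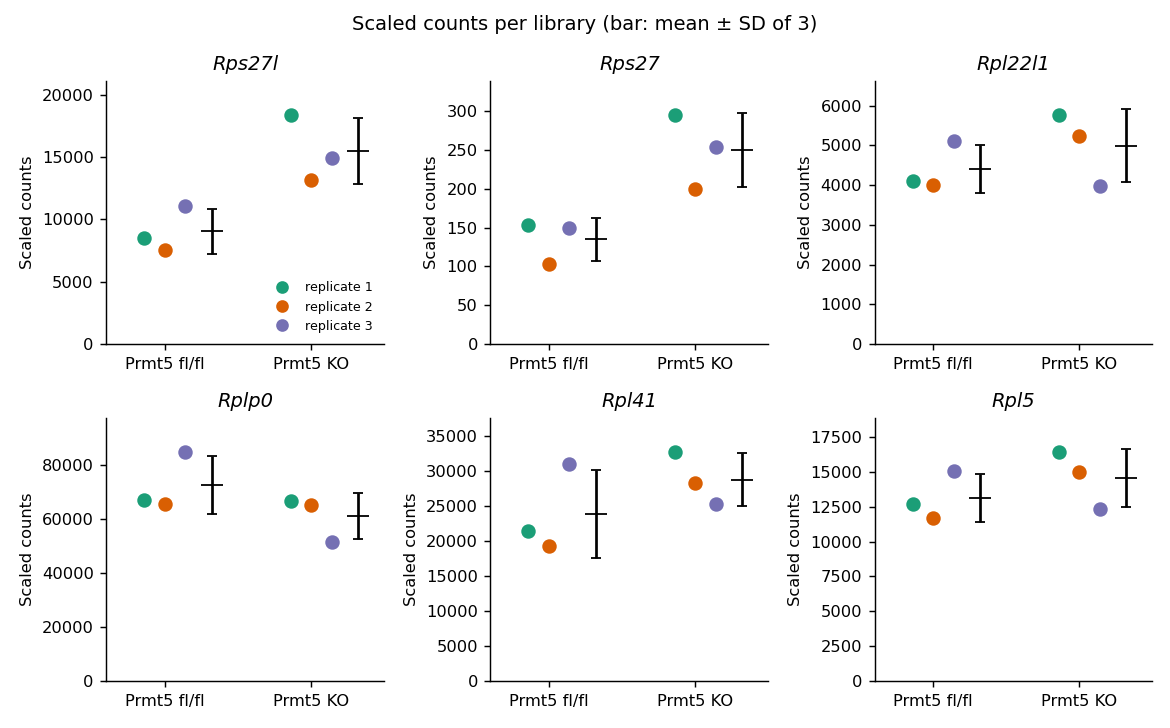
Scaled counts on axes from 0 for Rps27l, Rps27, Rpl22l1, Rplp0, Rpl41 and Rpl5, with 1 point per library, colors marking the replicate number and bars showing the mean ± SD of 3. The 3 KO values of Rps27l (13121 to 18334) and of Rps27 (200 to 294) lie above their 3 fl/fl values, and the groups overlap for the other 4 genes.

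Apart from these 2 genes, the group folds of the 40S genes were small, but the differences between same-numbered libraries were larger and of both signs. Their medians over all 40S genes were 0.35, 0.28 and -0.53 in the pairs numbered 1 to 3. Of 34 tested, 22 had a fold above 0, the median was 0.037, and the 32 other than Rps27 and Rps27l ran from -0.15 for Rps4l to 0.23 for Rps21. Rps21, a small protein of the 40S subunit, was at 4365, 4039 and 6179 scaled counts in the fl/fl libraries and 6446, 5556 and 4890 in the KO libraries. Its groups overlapped through fl/fl replicate 3, and its log2 fold was 0.23 (standard error 0.19). Rps19, the gene most often mutated in Diamond-Blackfan anemia, was at 29233, 31554 and 51578 in the fl/fl libraries and 36214, 34728 and 29723 in the KO libraries, with a fold of -0.12. Rps6, whose protein is a substrate of S6 kinase, had a fold of 0.053. The fusion genes Rps27a, which joins a ribosomal protein to ubiquitin, and Fau, which joins one to a ubiquitin-like protein, had folds of 0.17 and -0.017. Of the 22 Diamond-Blackfan anemia genes listed, 21 were tested and 0 passed (limma), with a median of 0.062. Rps27, at 0.88, had the smallest p among them and Rpl31, at 0.22, the next.

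The 60S genes had a median fold of 0.017, and 26 of 48 tested were above 0. The ribosomal stalk, which recruits translation factors, consists of Rplp0 with dimers of Rplp1 and Rplp2. Rplp0 was at 66987, 65588 and 84625 scaled counts in the fl/fl libraries and 66588, 65067 and 51221 in the KO libraries. Values in the first and second libraries of both groups lay close together, and the difference lay in the third. Its log2 fold of -0.25 was the lowest of the family (standard error 0.15; limma, adjusted p = 0.439), while Rplp1 and Rplp2 had folds of 0.058 and 0.081. Of the 5S particle, Rpl5 was at 12707, 11703 and 15037 in the fl/fl libraries and 16424, 15021 and 12334 in the KO libraries. Rpl11 was at 13020, 12290 and 19032 in the fl/fl libraries and 15967, 14084 and 12512 in the KO libraries. Both overlapped between groups, with folds of 0.15 and -0.038, the second of which was above 0 with size factors and TMM scaling.

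Rpl41, which encodes the smallest protein of the ribosome, was at 21396, 19208 and 31000 scaled counts in the fl/fl libraries and 32671, 28318 and 25270 in the KO libraries. Its log2 fold was 0.29 (standard error 0.20), and the groups overlapped through fl/fl replicate 3. At the other end, Rpl21 had a fold of -0.20, Rpl13 -0.17 and Rpl10a -0.14, each with a standard error of 0.19 and overlapping groups. These 3 folds were above 0 with both libraries numbered 3 left out. Rpl35a, a 60S protein mutated in some Diamond-Blackfan anemia families, followed the family in fl/fl (4678, 4761 and 6871) but not in KO (4552, 8171 and 5318), where replicate 2 was the highest of all libraries.

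Paralogs of ribosomal proteins are encoded apart from their parent genes and are often specific to a tissue. Rpl22l1, the paralog of Rpl22, was at 4105, 4016 and 5114 scaled counts in the fl/fl libraries and 5758, 5240 and 3974 in the KO libraries. Per kilobase of gene length it stood at 317%, 320% and 317% of Rpl22 in the fl/fl libraries and 397%, 376% and 346% in the KO libraries. The ratio differed by more than the spread within groups, at 318% ± 1.74 and 373% ± 26.0 (SD, n = 3 each), and its groups did not overlap, as was so for 28.2% of single genes. The fold was 0.17 for Rpl22l1 and -0.057 for Rpl22, neither past the threshold (limma, adjusted p = 0.642 and 0.865), and the sign for Rpl22 turned with size factors and TMM scaling. Of the 50-base words of Rpl22l1, 58.9% occur in other genes. Rpl7l1, whose protein acts in ribosome assembly, stood at 12.4% to 15.3% of Rpl7 per kilobase and Rps4l at 7.71% to 11.2% of Rps4x, with overlapping groups.

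The paralogs best known from testis and muscle were nearly absent. Rpl39l, a paralog used in sperm cells, was at 10.1, 10 and 5.3 scaled counts in the fl/fl libraries and 10.6, 68.4 and 5.9 in the KO libraries. Its fold of 0.95, the highest of the family, rested on KO replicate 2 and had a standard error of 0.92. Rpl3l, a paralog of striated muscle, was at 12.1, 1 and 3.2 in the fl/fl libraries and 9.5, 1.1 and 20.1 in the KO libraries. It was the 1 gene below the filter of a mean of 10 and was not tested.

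Because the family moved together, its members were also compared with each other. The correlation of log2 values over the 6 libraries had a median of 0.92 over the 3321 pairs of tested genes, and 77.4% of pairs were above 0.8. All points of such a correlation share the same libraries and their depth. It was not computed for pairs of other genes, and other genes over 500 and up to 1000 bases also stood at 0.50 in fl/fl replicate 3. Rpl39l, Rps27, Rps27l and Rpl35a were least like the rest, with a correlation to the family's median of -0.0034, 0.25, 0.43 and 0.45. The genes outside the family most like its median over the 6 libraries were Larp7 (r = 0.997) and Katnbl1 (r = 0.996).

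With every library scaled to the family's median, a scaling chosen after seeing the data, 0 genes passed and 7 had an unadjusted p below 0.05 (limma), where 15.5% of all genes did. Of these, Rps27l, Rps27 and Rpl41 were higher, with folds of 0.73, 0.83 and 0.24. Rplp0, Rpl21 and Rpl13 were among the 4 lower, with folds of -0.30, -0.26 and -0.22. On this scale Rplp0 stood 2.30, 2.31 and 2.15 above the family's median in fl/fl and 1.91, 2.05 and 1.90 above it in KO. Rpl41 stood at 0.66, 0.54 and 0.70 in the fl/fl libraries and 0.88, 0.85 and 0.88 in the KO libraries. Neither gene's groups overlapped here, unlike on the deposited scale. In all, 13 genes had KO above fl/fl in every library and 23 had it below, 43.9% of the tested members against 23.4% of all genes. The scaling takes out the shift the members share and not that of other genes, so these shares are not on equal terms. Among the 13 were Rpl15, Rpl31, Rpl38, Rps21, Rps25 and Rps27a, and among the 23 were Rpl3, Rpl10a, Rps2, Rps3, Rps4x and Rps9.

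Members with shorter deposited lengths had higher folds. Spearman's rho of fold and length was -0.447 over the 82 genes and 0.242 over all tested genes, and rho of fold and mean level was -0.537 within the family. Within the pairs rho of the difference and length was -0.460, -0.529 and -0.172. These are descriptions across genes of the same 6 libraries. The 14 genes whose RefSeq start is a C and 4 pyrimidines had a median fold of 0.079, and the 47 tested genes with another start had 0.019.

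**Figure D5:**
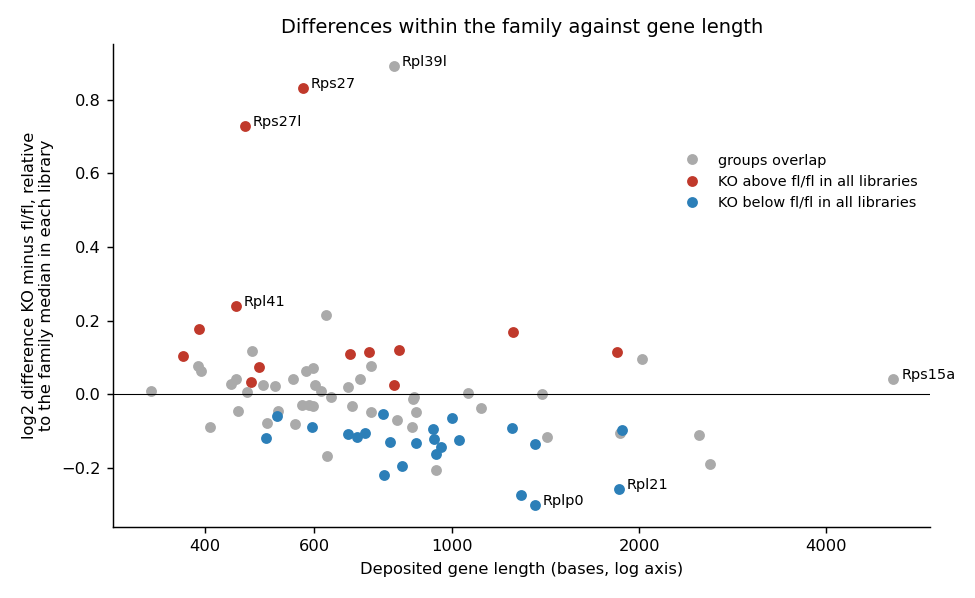
Each point is 1 of the 82 tested genes, with the deposited gene length in bases on a log horizontal axis and the log2 difference of Prmt5 KO minus fl/fl, relative to the family's median in each library, on the vertical axis. Red points are the 13 genes with all KO libraries above all fl/fl libraries and blue points the 23 with all below. Rps27l and Rps27 stand at 0.73 and 0.83 and Rplp0 at -0.30.

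Levels within the family spanned a wide range. Per kilobase of deposited length, the fl/fl mean was highest for Rpl32 (85852 scaled counts per kilobase), Rpl13 (82567), Rps18 (60104), Rps19 (59547) and Rps14 (58429). Rpl32 was above Rpl13 in each of the 6 libraries, though by little in fl/fl replicate 2 (70613 and 70359), and Rpl13 was above Rps18 in each library. The standard deviations over the 3 libraries, 15247 to 25232, exceeded the steps among Rps18, Rps19 and Rps14. These deviations include the shift that the family shares, and the order of Rps18, Rps19 and Rps14 was not examined within libraries. The median gene was at 22229, against 453 over all tested genes, and 53 of 82 lay within 2-fold of that median. Lowest among the tested genes were Rpl39l (10.5), Rps27 (235), Rpl30 (247), Rpl34 (735) and Rps15a (2191). Rps15a has a deposited length of 5134 bases, the longest of the family, and its counts before division by length, 9734 to 14154 in fl/fl, lay in the usual range. Of the 50-base words of Rpl30, 72.8% occur in other genes, and of Rpl34 11.0%. Over the family the median was 35.8%, and 79 of 82 genes with annotated coding transcripts shared words with another gene, mostly pseudogenes. Other genes also overlap exons of members from the opposite strand, and reads of such partners cannot be told apart in these libraries. Exons of other genes covered 66.2% of the exon bases of Rpl35 (Arpc5l and Wdr38) and 62.3% of those of Rpl23a (Tlcd1 and the small RNA gene Snord42b). The share was 47.0% for Rpl24 and 35.4% for Rpl13a, from genes on the same strand. It was 24.8% to 28.7% for Rps10, Rpl5, Rpl31, Rps25 and Rpl30, and lower for Rpl32, Rps18, Rps27a and Rpl22l1 among others. The 5 tested rows of ribosomal protein pseudogenes had a median fold of -0.0090, and 0 passed.

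Of the genes that work with the family, 0 passed in each list with limma. Of the ribosomal genes outside the symbol rule, Rpl36al had a fold of 0.11. Of 76 mitochondrial ribosomal protein genes 38 had a fold above 0, and the smallest p belonged to Mrpl24 (-0.50) and Mrpl28 (0.43). Of 16 other TOP mRNAs, mostly translation factors, 10 were above 0 with a median of 0.055, and the smallest p belonged to Eif4b (0.28) and Hnrnpa1 (-0.28). Among 8 chaperones that escort new ribosomal proteins, Heatr3, the carrier of RPL5, had a fold of 0.30 and Grwd1, the chaperone of RPL3, 0.13. Among 8 regulators Mdm2, the ubiquitin ligase of p53, was at 4378, 5146 and 4025 scaled counts in the fl/fl libraries and 7104, 5228 and 6871 in the KO libraries. Its groups did not overlap, and its fold was 0.50 (standard error 0.17; limma, adjusted p = 0.18). The adjusted p of Mdm2 was 0.161 with edgeR and 0.0456 with DESeq2, which passed. Myc, an activator of ribosomal protein genes, had a fold of -0.29 (limma, adjusted p = 0.321).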

How the data were processed

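Per the labels' protocols, Trizol RNA was made into libraries with the SMART-Seq v4 and Nextera XT kits, which do not mark strand, so reads of overlapping antisense genes cannot be told apart. Per the submitters' processing notes, STAR, featureCounts and mm10 were used. The sources used here do not give versions, the gene annotation or the treatment of reads with several matches. The authors left the column of Prmt5 fl/fl replicate 2 as read counts. In the other 5 columns the authors' values are a scaled signal: counts multiplied by the total of that library (44704636) and divided by the column's own. Undoing this gave whole reads for 100% of values (tolerance 1e-06).

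The fit kept genes whose mean reached 10 scaled counts (14113, with 82 of the 83 ribosomal protein genes) and compared log2(value + 1) with limma's moderated two-sided test with a mean-variance trend and 4 residual degrees of freedom. Benjamini-Hochberg adjustment ran over all 14113, with a threshold of 0.05. The log2(value + 1) scale understates changes of low genes. edgeR's quasi-likelihood test and DESeq2 were run on the recovered reads. R 4.3.3, limma 3.58.1, edgeR 4.0.16, DESeq2 1.42.0, Python 3.11.15 and matplotlib 3.10.9 were used, and the fits were tested on simulated data. Each library is a separate pool of 2 mice. At these depths the spread between libraries, not counting error, limits precision for all but the lowest genes. The members and lists were chosen with earlier results of these data known, so no p is given over members.

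The named genes were any past the threshold; the 6 highest and 6 lowest by fold; the 5 highest and 5 lowest per kilobase; the paralogs, stalk and 5S particle; the 2 smallest p in each other list; and the 2 genes most like the family. A few of these are left out of the text. Further names were picked with their values known. Coordinates are from GENCODE M21 (GRCm38/mm10) by symbol, and shared words are 50-base sequences of its protein-coding transcripts.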

Additional observations from a re-analysis of the deposited data

How the results depend on the processing

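The counts of 0 higher and 0 lower among 82 genes and the median of 0.021 were computed again under other scalings, pseudocounts, filters and tools and without each library. The count of higher genes was 2 with DESeq2 and 0 to 1 with 1 library left out, and it was 11 with both libraries numbered 3 left out, where the median was 0.31. The count of lower genes was 0 in all of these fits. With both libraries numbered 3 left out, a choice made after seeing the data, folds turned above 0 for Rpl21 (0.10), Rpl13 (0.13), Rps4l (0.17), Rpl10a (0.16), Rpl22 (0.16) and Rpl11 (0.25). Folds of Rpl22 and Rpl11 were also above 0 with size factors (0.030 and 0.049), TMM (0.0055 and 0.025), edgeR (0.0024 and 0.0037) and DESeq2 (0.026 and 0.027). With 1 library left out the fold ran from -0.27 to 0.035 for Rpl13, -0.30 to 0.13 for Rps4l, -0.25 to 0.054 for Rpl10a, -0.13 to 0.056 for Rpl22, -0.16 to 0.16 for Rpl11, -0.019 to 0.18 for Rplp1 and -0.12 to 0.30 for Rpl35a. The cause of these turns was not tested. The difference of the summed share, -0.073 percentage points, ran from -0.32 to 0.39 with 1 library left out. The labels do not say what the shared title prefixes mark, and the deviations from the group means correlated by -0.14, 0.067 and -0.26 in the same-numbered pairs. Not every library correlated best with its own number (fl/fl replicate 1 with KO replicate 3, 0.35). With the replicate number as a block, which leaves 2 residual degrees of freedom, limma called 0 higher and 0 lower, and the median stayed at 0.021. The share over genes not encoded by mitochondrial DNA was not run, since the symbols matched no mitochondrial gene. Depth limits Rpl39l and Rpl3l, with few reads in most libraries.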
